A study of Mus musculus with 165 samples.

Results

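The livers of 16 mice aged 15 months were compared with those of 16 mice aged 3 months. These 32 libraries were taken by their labelled tissue and age from the 165 libraries of a series on brain and liver ageing that also held livers of 9, 24 and 28 months, 83 livers in all. All mice were C57BL/6J/Ukj males, an inbred line, with no treatment and no altered gene in either group. The labels say that they were kept for ageing alone, and each library came from 1 mouse. Polyadenylated RNA of bulk liver was sequenced, so every value is an average over all cell types of the tissue. The time of day and the feeding state at collection are not given in the sources used here. Library preparations were marked prep 1, prep 2 and prep 3 in the labels, with 5, 6 and 5 livers of 3 months and 5, 7 and 4 of 15 months, and prep was a term of the fit.

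The liver is mostly hepatocytes, which make plasma proteins, store and release glucose and fat, and clear hormones and drugs. Many of these genes follow meals, the daily clock and the pulses of growth hormone that differ between males and females, so they differ between mice of 1 age. Other cells, among them endothelium, stellate cells, resident macrophages called Kupffer cells, lymphocytes and plasma cells, add smaller amounts of RNA. A mouse of 3 months is a young adult and a mouse of 15 months is in middle age.

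Total counts per library were 22.8 to 45.1 M at 3 months (median 31.2 M) and 5.82 to 47.6 M at 15 months (median 31.0 M). The lowest was replicate 16 of 15 months, and the next paragraphs give levels as CPM, counts scaled to a common library size. The tissue label held in every library. Albumin (Alb) ran from 39744 to 79808 CPM at 3 months and from 52163 to 98042 CPM at 15 months, and the summed level of 16 core hepatocyte genes was 89978 to 131098 CPM at 3 months and 105835 to 152440 CPM at 15 months. None of those 16 genes was called different, beside 7.32% of all genes tested.

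Among the livers of 3 months, 4 stood apart from the other 28 livers of these ages (replicates 10, 13, 15 and 16). They came from all 3 preps and had 31.4 to 45.1 M counts. On the first principal component, with 27.4% of the variance, they had scores of 40.4 to 49.0, against -10.2 to 1.93 for the other 12 livers of 3 months and -18.7 to -2.67 at 15 months. On the second component, with 15.3%, the highest scores were 48.9 in replicate 12 of 3 months and 30.1 in replicate 1 of 15 months. The next was 22.3, in replicate 7 of 15 months. Gamma-actin (Actg1) was at 814, 698, 482 and 751 CPM in replicates 10, 13, 15 and 16, against 53.4 to 90.7 CPM in the other 12 and 54.4 to 172 CPM at 15 months. The linker histone gene Hist1h1c was at 339 to 539 CPM in the 4, and at 23.2 to 59.2 CPM in the other 12. Angptl8, a secreted regulator of triglyceride clearance that rises on feeding, was at 367 to 475 CPM in the 4 against 9.52 to 156 CPM. Pck1, the gluconeogenic enzyme that rises on fasting, was at 113 to 338 CPM in the 4 against 643 to 2731 CPM. The summed level of 22 genes of feeding, glycolysis and fatty acid synthesis was lower in the 4, at 6464 to 10422 CPM, against 11746 to 36042 CPM in the other 12 and 13554 to 43132 CPM at 15 months. Per2, a component of the clock, was at 21.8 to 29.5 CPM against 3.30 to 15.5 CPM, and Nsdhl, an enzyme of cholesterol synthesis, at 17.5 to 31.1 CPM against 110 to 165 CPM. The 4 and the other 12 therefore do not overlap in these 6 genes, which were chosen after their values were seen. The summed level of the 4 gallbladder markers that passed the filter on low counts was 14.9 to 30.8 CPM in the 4, 3.53 to 8.96 CPM in the other 12 and 4.16 to 7.44 CPM at 15 months. The list has 8 markers, and in the phosphate transporter Slc34a2 the 4 livers had 12.7 to 28.4 CPM against 0.365 to 5.72 CPM, while in the other 3 that passed they overlapped with the 12. The part of gallbladder tissue in the results was not tested. The labels give the 4 livers no separate group, so they stayed in the comparison. Counts of calls over all genes are given with and without them, as are the genes named below that lost their call without them.

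**Figure D1:**
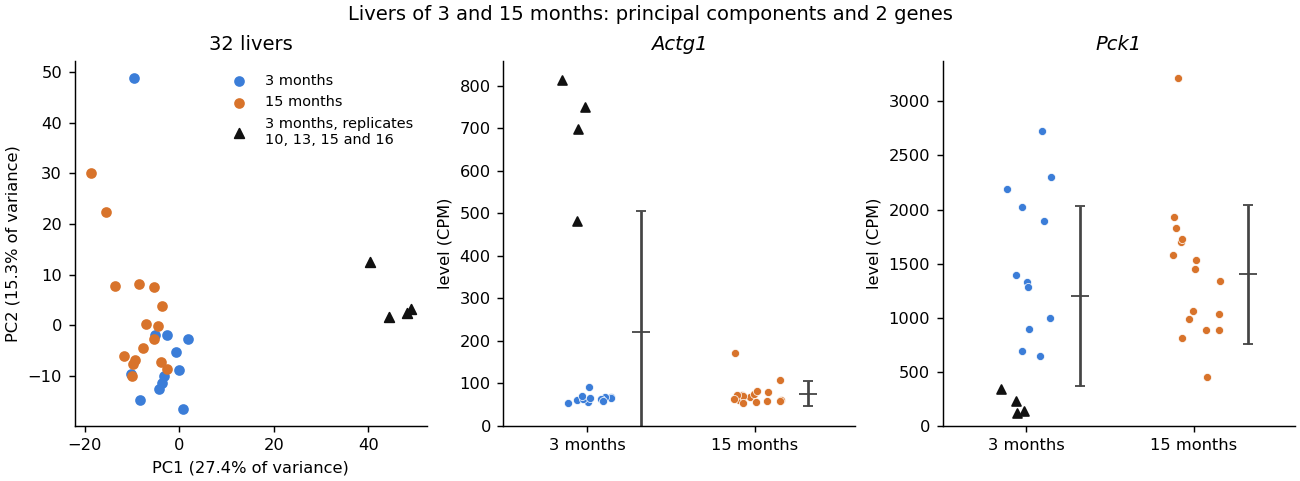
The left panel plots the 32 livers on the first and second principal components (percent of variance in the axis labels), and the middle and right panels plot Actg1 and Pck1 in CPM per liver, with the mean and SD of each age beside the points (bars cut at 0). Black triangles are replicates 10, 13, 15 and 16 of 3 months, which lie at 40.4 to 49.0 on the first component, at 482 to 814 CPM for Actg1 and at 113 to 338 CPM for Pck1.

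From 3 to 15 months, 1140 of 15579 genes tested differed (7.32%), 477 higher (3.06%) and 663 lower (4.26%), by edgeR's quasi-likelihood test with Benjamini-Hochberg adjustment at an adjusted p under 0.05, as are all adjusted p-values below. Among called genes, 215 rose and 52 fell by at least 2-fold. The median log2 fold change was 0.89 among those that rose and -0.31 among those that fell. Those that rose had lower levels, with a median of 2.13 CPM against 13.6 CPM, so these sizes are not compared at like levels. Over all genes tested the median was -0.02, with 6898 above 0 and 8681 below it. The same fit without the 4 livers called 327 of 15725 genes (2.08%), 266 higher (1.69%) and 61 lower (0.388%). Of the 477 genes that rose, 246 were called in the same direction without them, while of the 663 that fell only 45 were. In that fit the median of the 477 was 0.83 and the median of the 663 was -0.12, and 25 called genes had the opposite sign. Most calls of a lower level at 15 months were therefore not made once those 4 livers were left out.

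**Figure D2:**
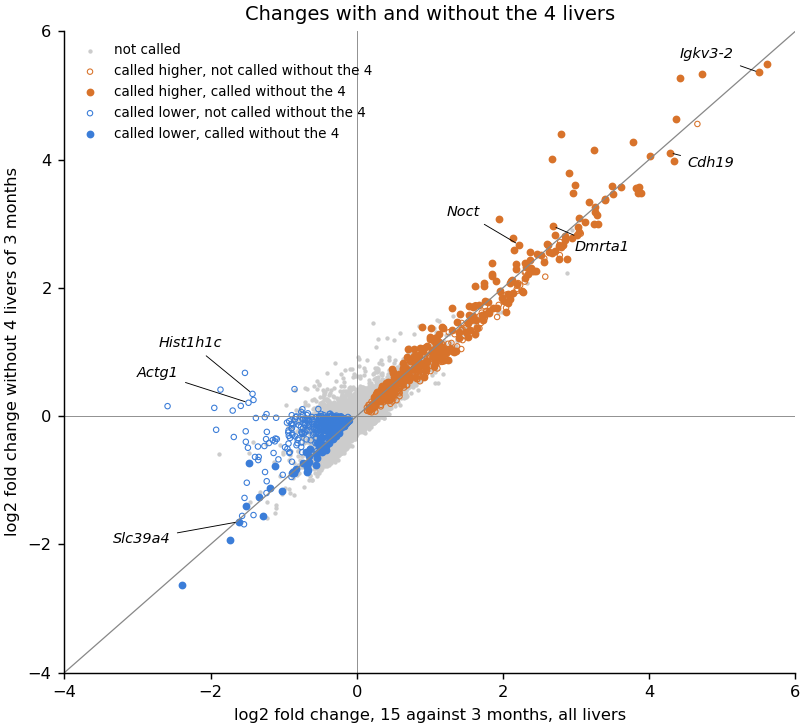
Each point is a gene, with its log2 fold change of 15 against 3 months over all livers on the horizontal axis and the same without replicates 10, 13, 15 and 16 of 3 months on the vertical axis. Filled orange and blue points are the 246 higher and 45 lower genes called both ways, which lie near the diagonal, and many open blue points lie close to 0 on the vertical axis.

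The genes that rose and those that fell differed in make-up. Of the former, 72.1% were protein coding, against 91.0% of those that fell and 87.0% of all tested, and 69 were immunoglobulin segments or constant genes. Their median exon length was 2866 bases, against 4762 bases for those that fell and 4013 bases for all, and 37.5% had a mean under 1 CPM, against 9.80% and 19.8%. With fewer livers in each fit, preps 1, 2 and 3 alone called 57, 54 and 14 genes higher and 1, 10 and 0 lower.

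In 17 genes the 2 ages did not overlap in any liver, 15 with the 15-month livers higher (0.0963% of genes tested) and 2 with them lower (0.0128%). The 15 were Dmrta1, Hsf2bp, Ntrk2, Nebl, Cdh18, Cdh19, Olfr701, Fam19a2, Dpy19l3, Cygb, 5033421B08Rik, a gene with no symbol, and the immunoglobulin genes Igkc, Ighg2b and Ighg2c. The 2 were Slc39a4 and Tent5a. All 17 were called without the 4 livers too, but leaving out livers cannot make the 2 ages overlap, so this is no separate check.

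The lowest adjusted p belonged to Dmrta1, a transcription factor of the doublesex and mab-3 related family. It had 0.120 to 0.807 CPM at 3 months (median 0.394) and 1.9 to 3.86 CPM at 15 months (median 2.86). The highest liver of 3 months was thus below the lowest of 15 months by more than 2-fold. The means were 0.442 ± 0.218 and 2.90 ± 0.618 CPM (SD, n = 16 each), a log2 fold change of 2.68 with an SE of 0.18 and an adjusted p of 4.6e-21, and it was 2.96 without the 4 livers. Preps 1, 2 and 3 alone gave 2.49, 2.84 and 2.68.

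Cdkn2a lies within 500000 bases of it on chromosome 4, with Cdkn2b between them, and rose as well. It encodes the cell cycle inhibitors p16Ink4a and p19Arf, markers of senescence, from 2 promoters. At 3 months its level was 0 to 0.420 CPM (median 0.0807), with 11 of 16 livers at 3 counts or fewer, and at 15 months 0.359 to 1.40 CPM (median 0.942). The groups met only at replicate 12 of 3 months, with 0.420 CPM, and replicates 5 and 10 of 15 months, with 0.359 and 0.391 CPM. The log2 fold change was 3.04 with an SE of 0.39 and an adjusted p of 1.3e-08, and 2.88 without the 4 livers. Counts were per gene, so the 2 products cannot be told apart. Cdkn2b, the inhibitor p15, was not called at 0.66 (adjusted p = 0.071, 0.44 without the 4 livers) and Mtap, the next gene on the other side, -0.16 (0.12). In GENCODE M21 on GRCm38, Cdkn2a spans chr4:89274471-89294653 on the minus strand and Dmrta1 spans chr4:89679436-89694772 on the plus strand.

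The promoter windows of Cdkn2a and Dmrta1 are shown because both rose and lie in 1 stretch of chromosome 4, and that of Zfp979, a further gene of this chromosome that rose, stands beside them. Each window is RefSeq sequence of GRCm38.p6, 5′ to 3′ on the gene's own strand, from 250 bases before the start site to 50 after it, and capitals mark the first 50 transcribed bases. The windows are chr4:89294570-89294869 (upstream start of Cdkn2a), chr4:89282143-89282442 (downstream start of Cdkn2a), chr4:89687948-89688247 (Dmrta1) and chr4:147642459-147642758 (Zfp979). The Dmrta1 window, at the RefSeq start, lies inside the GENCODE span given above and not at the beginning of that span.
Cdkn2a upstream start: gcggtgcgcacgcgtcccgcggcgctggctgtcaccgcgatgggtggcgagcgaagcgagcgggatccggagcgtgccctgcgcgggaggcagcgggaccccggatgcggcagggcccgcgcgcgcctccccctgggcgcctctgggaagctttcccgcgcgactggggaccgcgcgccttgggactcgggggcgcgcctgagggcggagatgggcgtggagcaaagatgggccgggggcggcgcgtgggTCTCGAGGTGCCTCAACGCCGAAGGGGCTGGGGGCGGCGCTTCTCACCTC
Cdkn2a downstream start: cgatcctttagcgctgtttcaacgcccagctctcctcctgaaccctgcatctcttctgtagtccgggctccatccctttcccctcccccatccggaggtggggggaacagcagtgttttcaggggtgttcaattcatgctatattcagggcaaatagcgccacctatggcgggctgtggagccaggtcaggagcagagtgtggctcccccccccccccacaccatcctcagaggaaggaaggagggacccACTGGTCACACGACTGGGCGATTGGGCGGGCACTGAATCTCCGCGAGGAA
Dmrta1: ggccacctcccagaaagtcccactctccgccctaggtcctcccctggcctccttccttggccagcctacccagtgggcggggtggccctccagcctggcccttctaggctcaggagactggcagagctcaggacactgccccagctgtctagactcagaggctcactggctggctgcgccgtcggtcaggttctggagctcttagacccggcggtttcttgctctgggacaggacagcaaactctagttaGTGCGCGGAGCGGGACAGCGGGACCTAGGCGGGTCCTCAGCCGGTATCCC
Zfp979: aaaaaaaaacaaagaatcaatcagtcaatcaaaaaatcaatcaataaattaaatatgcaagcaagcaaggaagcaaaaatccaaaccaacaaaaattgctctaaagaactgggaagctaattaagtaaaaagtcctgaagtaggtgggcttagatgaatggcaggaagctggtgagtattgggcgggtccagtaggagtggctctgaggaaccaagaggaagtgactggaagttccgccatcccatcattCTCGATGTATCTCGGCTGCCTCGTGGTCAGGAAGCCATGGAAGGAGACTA
The windows were searched on both strands for the E-box CACGTG and the D-box TTANGTAA, motifs of clock factors. The single match was a D-box in Zfp979, beginning at position -130 from the start site. Of 32851 promoter windows of 300 bases in the same table, 7.15% held the E-box and 2.32% the D-box.

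Hsf2bp, which encodes a partner of heat shock factor 2 known from meiotic recombination, rose like Dmrta1. It had 0.146 to 1.05 CPM at 3 months (median 0.426) and 1.94 to 5.03 CPM at 15 months (median 2.99), with no overlap. Its log2 fold change was 2.71 with an SE of 0.19 (adjusted p = 7.9e-20) and 2.82 without the 4 livers. It spans chr17:31944769-32036349 on the minus strand, where its first bases overlap Rrp1b on the plus strand. Rrp1b fell by 0.51 on the log2 scale (adjusted p = 0.028), and had a value of -0.04 without the 4 livers. The lincRNA AC138228.2, downstream of Hsf2bp on the same strand, rose by 1.29 (6.9e-07, and 1.05 without the 4). The submitters' kit marks strand, but the strand setting of the counting is not given in the sources used here.

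Zfp979, a zinc finger gene at chr4:147611937-147642513, went from 0.129 to 1.02 CPM at 3 months (median 0.442) to 0.493 to 6.57 CPM at 15 months (median 3.34). Only replicate 1 of 15 months, the lowest, lay within the range of the younger livers. The log2 fold change was 2.82 (SE 0.23, adjusted p = 1.3e-16). Zfp982, another zinc finger gene of that cluster, rose by 0.84 (0.0014). Such zinc finger genes are alike in sequence, so reads shared between them make these values uncertain.

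Gnai1, an inhibitory G protein subunit that lowers cyclic AMP, had 0.703 to 2.73 CPM at 3 months (median 1.39) and 2.1 to 7.44 CPM at 15 months (median 4.51). It rose by 1.57 on the log2 scale (SE 0.14, adjusted p = 9.6e-15), and replicate 1 of 15 months was again the lowest of its group. Serpine2, a secreted inhibitor of thrombin and other serine proteases, went from 2.36 to 13.4 CPM (median 5.49) to 11.1 to 28.9 CPM (median 19.9), a log2 fold change of 1.74 (2.5e-11). Chrm3, a muscarinic acetylcholine receptor, rose by 1.79 (8.7e-08), Osbpl3, an oxysterol-binding protein, by 1.81 (1.2e-07), and Irx1, a homeobox transcription factor, by 1.71 (2.5e-09). Dmrta1, Cdkn2a, Hsf2bp, Zfp979, Gnai1 and Serpine2 all lay under 30 CPM in every liver of both ages. In the fit without the 4 livers the values were 2.67 for Zfp979, 1.51 for Gnai1, 2.07 for Serpine2, 1.78 for Chrm3, 1.61 for Osbpl3 and 1.57 for Irx1.

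Dpy19l3, a C-mannosyltransferase, went from 12.2 to 27.3 CPM (median 16.5) to 30.2 to 54.3 CPM (median 35.3), a log2 fold change of 1.08 (adjusted p = 4.5e-07) with no overlap. Cygb, cytoglobin, a globin of stellate cells, had 5.70 to 9.57 CPM and then 9.69 to 14.7 CPM, a log2 fold change of 0.61 (1.6e-06). The values without the 4 livers were 1.09 and 0.57. Oat, ornithine aminotransferase of hepatocytes round the central vein, rose by 0.69 (0.00032, and 0.64 without the 4 livers), from a median of 356 to one of 565 CPM. Cdh19 and Olfr701 had 3 counts or fewer in all 16 livers of 3 months. Set against that floor taken per library, their means at 15 months of 0.516 and 0.472 CPM were at least 5.29-fold and 4.84-fold higher.

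**Figure D3:**
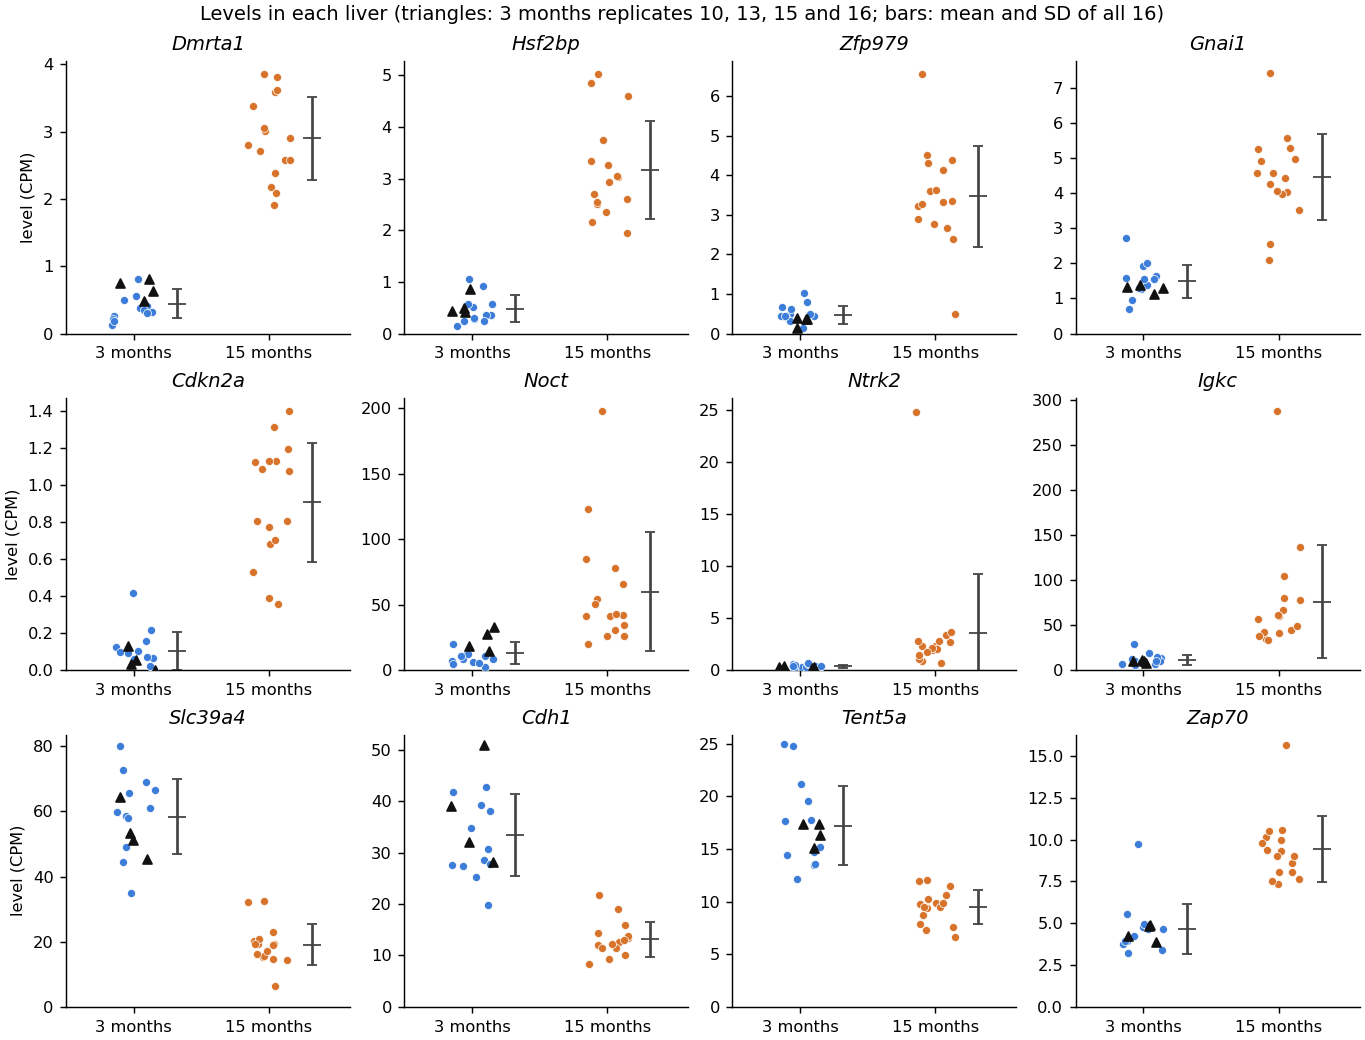
Levels in CPM of 12 genes in each of the 32 livers, by age, with the mean and SD (bars cut at 0) beside the points and black triangles for replicates 10, 13, 15 and 16 of 3 months. In Dmrta1, Hsf2bp, Ntrk2, Igkc, Slc39a4 and Tent5a the 2 ages do not overlap.

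Noct, nocturnin, a phosphatase of NADPH whose transcript cycles strongly in the liver, rose by 2.22 on the log2 scale (SE 0.27, adjusted p = 2.3e-09). Its livers ran from 2.71 to 33.2 CPM at 3 months (median 10.8) and from 19.8 to 198 CPM at 15 months (median 42.4). Only the 2 highest livers of 3 months, replicates 10 and 16, were above 20 CPM, and both belong to the 4 that stood apart, so that the log2 fold change was 2.67 without those 4. The highest value was that of replicate 1 of 15 months. Noct was the 1 gene called among 24 genes of the clock and its output, near the 3.06% of all genes that rose, and their median was 0.02. Arntl, the clock activator also called Bmal1, ran from 13.3 to 35.6 CPM at 3 months and from 18.6 to 34.7 CPM at 15 months (adjusted p = 0.95). Dbp, an output of the clock, ran from 0.657 to 58.1 CPM and from 0.853 to 32.9 CPM (0.73). The 2 ages overlapped in both genes.

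The list with the most genes that rose was that of the immunoglobulins, the antibody genes of plasma cells and B cells. Of 383 variable segments 82 passed the filter on low counts, and of these 62 rose and none fell, against 3.06% of all genes that rose. A segment that passed only through the ages where it is high had to differ, so this count is a description of the segments that passed. Without the 4 livers, 38 rose, against 1.69% of all genes. The summed level of these 82 was 7.18 to 29.3 CPM at 3 months (median 9.76) and 21.8 to 176 CPM at 15 months (median 42.8).

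The constant genes moved with them. Igkc, the kappa light chain, had 6.14 to 28.6 CPM at 3 months (median 10.4) and 33.5 to 288 CPM at 15 months (median 58.4), with no overlap. Its log2 fold change was 2.62 (SE 0.39, adjusted p = 6.4e-07), and 3.43, 2.18 and 2.24 in preps 1, 2 and 3. Ighm, the heavy chain of IgM, had 4.44 to 49.1 CPM and then 48.9 to 482 CPM, a log2 fold change of 2.77 (5.1e-06). Replicate 11 of 15 months was highest for both, and the values without the 4 livers were 2.57 for Igkc and 2.46 for Ighm. Ighg2c, Ighg2b and Ighg1, heavy chains of class-switched antibodies, rose by 3.04, 2.77 and 3.26, and Jchain, which joins the units of IgM and IgA, by 2.1 (8.5e-06). Within the list of 22 immunoglobulin constant and plasma cell genes 8 rose and 1 fell, Fkbp11, a chaperone of the secretory pathway, beside 3.06% and 4.26% of all genes. Leaving out the 4 livers, 7 rose and none fell, beside 1.69% and 0.388%. Reads shared between near-identical segments make single immunoglobulin values uncertain. In bulk tissue, more cells of a type and more RNA per cell cannot be told apart.

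Other leukocyte lists had at most 2 calls each. Of 15 B cell genes none was called, although all 15 had a log2 fold change above 0 (median 0.76, and 0.60 without the 4 livers), beside 6898 of all 15579 genes. The summed B cell level was 11.1 to 52.0 CPM (median 18.0) and 17.4 to 59.5 CPM (median 29.6).

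Of 29 T cell and cytotoxic genes 1 was called, near the 3.06% of all genes that rose. This was Zap70, a kinase of the T cell receptor, at 3.24 to 9.71 CPM (median 4.44) and then 7.36 to 15.7 CPM (median 9.19). It rose by 1.02 (SE 0.12, adjusted p = 3.4e-10) and by 1.01 without the 4 livers. The list had a median of 0.47, and its summed level went from 19.1 to 104 CPM at 3 months to 26 to 87.2 CPM at 15 months.

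Of 28 Kupffer cell and macrophage genes Lyz2, lysozyme (0.72, adjusted p = 0.0073), and Ms4a7 (1.12, 0.0092) rose, beside 3.06% of all genes, a share that also holds for the counts of neutrophil genes and chemokines that follow. Neither was called without the 4 livers (0.068 and 0.057), and Clec4f, a lectin of Kupffer cells, had medians of 118 and 125 CPM. All 12 neutrophil genes had a log2 fold change above 0, beside 6898 of all 15579 genes, with a median of 0.89 (0.65 without the 4 livers). Their summed level went from 5.90 to 35.7 CPM (median 6.96) to 8.62 to 27.9 CPM (median 13.4). Of these 1 was called, Mmp9, a matrix protease, which rose by 0.90 (0.023), but was not called without the 4 livers (0.068) or without replicate 10 of 15 months (0.73, 0.069). Of 28 chemokines and cytokines Cxcl13, which draws B cells, rose by 1.40 (0.022) and Cxcl1, which draws neutrophils, by 1.63 (0.043). Neither was called without the 4 livers (0.14 and 0.13), nor was Cxcl13 without replicate 1 of 15 months (1.15, 0.064). Cxcl1 lost its call in 12 of the 32 fits that left out 1 liver, with the lowest value without replicate 3 of 15 months (0.89, 0.29). No gene of the red blood cell (7), platelet (4), dendritic cell (11), sinusoidal endothelium (19), cholangiocyte (11) or mesothelium (6) lists was called, beside 7.32% of all genes. When the 4 livers were left out, 1 dendritic cell gene, Siglech of plasmacytoid dendritic cells, was lower (0.043), as was 1 endothelial gene, beside 0.388% of all genes.

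Of 22 genes of class I presentation H2-Q1 rose by 1.36 (adjusted p = 0.00054), from a median of 6.2 to one of 15.0 CPM, and reads shared among class I genes make it uncertain. It was the 1 gene of that list that was called, beside 7.32% of all genes. Of 11 class II genes none was called (median 0.28, and 0.08 without the 4 livers). Of 31 interferon-stimulated genes 1 had a log2 fold change above 0 and 30 below, beside 8681 of all 15579 genes below 0, with a median of -0.23. Their summed level had medians of 760 CPM at 3 months and 755 CPM at 15 months, and reached 1540 CPM in a liver of 3 months. Ifi27 was the 1 above 0 and rose by 0.41 (0.017). Usp18, which removes ISG15 and dampens interferon signalling, fell by 0.89 (6.8e-05), from 7.44 to 28.6 CPM (median 12.1) to 4.74 to 12.9 CPM (median 6.36). Its highest value was that of replicate 12 of 3 months. Ddx58, the RNA sensor RIG-I, fell by 0.27 (0.019), and was not called without replicate 12 of 3 months (-0.22, 0.054). The list thus had 1 call higher and 2 lower, beside 3.06% and 4.26% of all genes. Without the 4 livers Usp18 alone of these was called, and the median was -0.31. None of 20 interferon-gamma GTPases was called, beside 7.32% of all genes, with a median of -0.23 (-0.36 without the 4 livers). Their summed level had medians of 752 CPM at 3 months and 720 CPM at 15 months, and reached 3192 CPM in a liver of 3 months. Of this list, Irgm1 was at 271 CPM in replicate 12 of 3 months, against 72.6 to 118 CPM in the others of that age.

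**Figure D4:**
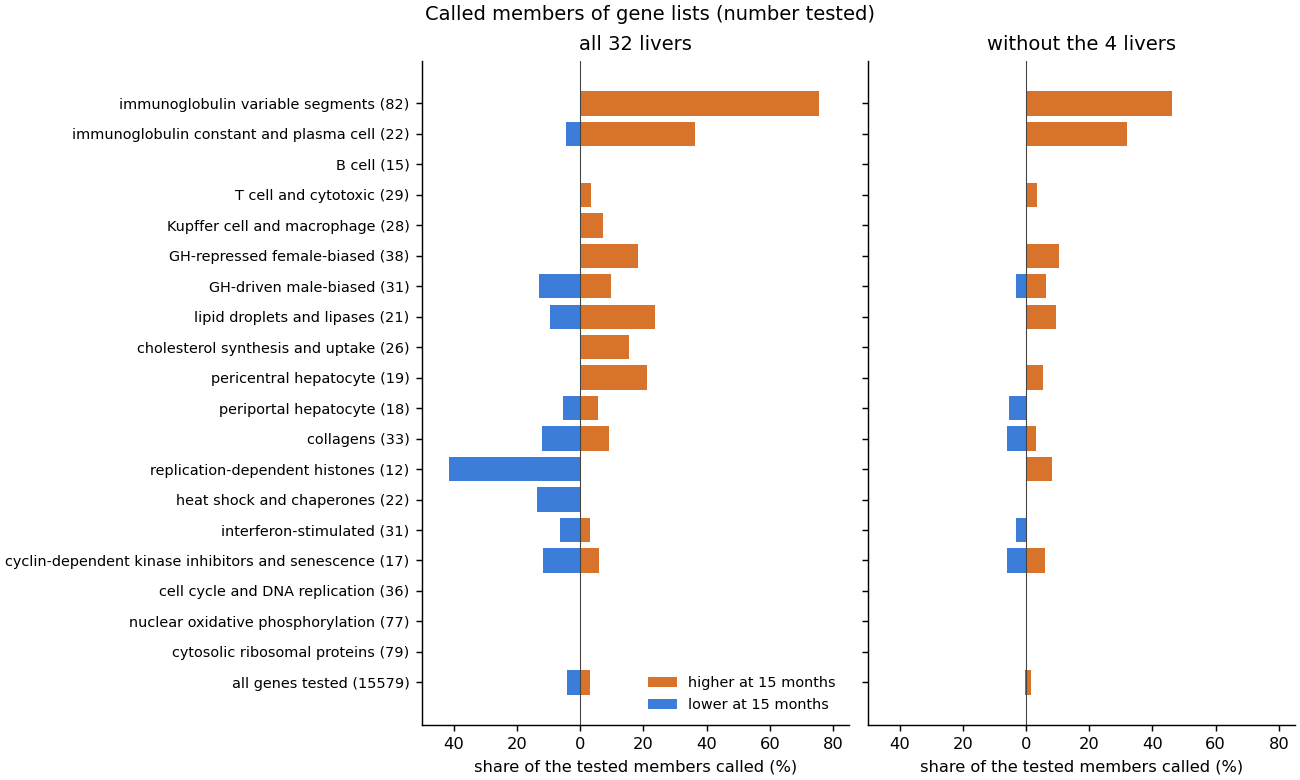
Bars give the share of the tested members of 19 gene lists, and of all genes tested, that were called higher (orange, right of 0) or lower (blue, left of 0) at 15 months, with the number tested in brackets. The left panel is over all livers and the right panel without replicates 10, 13, 15 and 16 of 3 months; immunoglobulin variable segments have 62 and 38 of 82 higher, and replication-dependent histones 5 and 0 of 12 lower.

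Genes repressed by the male pattern of growth hormone are higher in female livers. Of 38 such genes 7 rose and none fell, beside 3.06% and 4.26% of all genes. In 31 the log2 fold change was above 0, beside 6898 of all 15579 genes, and the median was 0.24, beside -0.02. Without the 4 livers 4 rose (Ntrk2, Slc22a26, Slc22a27 and Hao2) and the median was 0.12, beside 1.69% of all genes. Ntrk2, the receptor of brain-derived neurotrophic factor, had 0.109 to 0.646 CPM at 3 months (median 0.371) and 0.686 to 24.8 CPM at 15 months (median 2.22), a log2 fold change of 3.13 (SE 0.41, adjusted p = 3.6e-08). Replicate 1 of 15 months held the highest value, and the mean of that age was 3.55 CPM with it and 2.13 CPM without it. Slc22a27, an organic anion transporter, had 0.0438 to 1.68 CPM and then 0.944 to 7.18 CPM, a log2 fold change of 2.07 (2.9e-06). Its relative Slc22a26 rose by 2.13 (0.00099), with 29.5 CPM in replicate 1 of 15 months. Hao2, a peroxisomal hydroxyacid oxidase, rose by 2.35 (0.0014). It had 0 to 0.167 CPM at 3 months, near the floor of 3 counts (a mean of 0.0975 CPM), so the size of its rise is uncertain. At 15 months it had 0.113 CPM in replicate 8 and 1.30 CPM in replicate 12. Cyp2a4, a steroid hydroxylase with a near-identical partner, rose by 1.51 (0.024), was not called without the 4 livers (0.22), and was at 17.4 CPM in that same replicate, without which it had 0.81 (0.25).

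Of 31 genes of the male-biased counterpart 3 rose and 4 fell, with a median of -0.13, beside 3.06% and 4.26% of all genes. Leaving out the 4 livers, 2 rose and 1 fell, beside 1.69% and 0.388%. Gstp1, a glutathione transferase with a near-identical copy, fell by 0.69 (adjusted p = 0.0002), from 1077 to 2207 CPM to 508 to 1180 CPM. Nat8, an acetyltransferase, rose by 1.07 (0.00044). Hsd3b5, a steroid dehydrogenase, had medians of 215 and 210 CPM, and Slco1a1, an organic anion transporter, of 532 and 457 CPM. Replicate 1 of 15 months was the lowest of its group in both, at 15.8 and 71.9 CPM. None of 20 major urinary protein genes was called, beside 7.32% of all genes, with a summed level of 8646 to 21301 CPM at 3 months and 2790 to 18689 CPM at 15 months. None of 22 genes of the growth hormone and IGF axis was called either, beside the same 7.32%, and Igf1 had medians of 494 and 531 CPM.

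Of 21 genes of lipid droplets and lipases 5 rose and 2 fell, beside 3.06% and 4.26% of all genes. In the fit without the 4 livers Fitm1 and Cidea rose and none fell, beside 1.69% and 0.388%. Fitm1, a membrane protein that forms lipid droplets, went from 11.3 to 41.3 CPM (median 27.3) to 20.8 to 74.5 CPM (median 56.6), a log2 fold change of 1.11 (adjusted p = 8.4e-05). Cidea, a droplet protein of adipocytes and fatty hepatocytes, had 0 to 0.548 CPM and then 0.0932 to 7.53 CPM, with medians of 0.0624 and 0.515 CPM and a log2 fold change of 3.77 (SE 0.79, 0.00071). Its relative Cidec rose by 1.26 (0.027), Mogat1, an acyltransferase of triglyceride synthesis, by 0.95 (0.029), and Cd36, the fatty acid translocase, by 0.41 (0.028). G0s2, an inhibitor of the main triglyceride lipase, fell by 1.14 (0.0061), and Abhd5, the activator of that lipase, by 0.28 (0.018). None of these 5 was called without the 4 livers, with adjusted p from 0.11 to 0.55. Of 9 adipocyte markers 4 were tested and 2 rose, Cidea and Pparg, a nuclear receptor of fat storage (log2 change 0.46, adjusted p = 0.026), of which Cidea was called without the 4 livers. The summed level of the 4 tested was 201 to 3557 CPM at 3 months and 1248 to 3816 CPM at 15 months, Adipoq, Plin1 and Lep did not pass the filter on low counts, and the part of fat tissue in the results was not tested.

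All 26 genes of cholesterol synthesis and uptake had a log2 fold change above 0, beside 6898 of all 15579 genes. Of the 26, 4 (Fdft1, Sqle, Hsd17b7 and Pmvk) rose by 0.46 to 0.54, beside 3.06% of all genes that rose. The median was 0.37. None was called without the 4 livers, where the median was 0.14. The summed level shows the same in the single livers: 2371 to 3752 CPM in the 4, 5658 to 7885 CPM in the other 12 livers of 3 months and 5806 to 8166 CPM at 15 months. Of 28 genes of fatty acid oxidation and PPAR-alpha, the fatty acid sensor of hepatocytes, Cyp4a31, a fatty acid hydroxylase, fell by 1.18 (adjusted p = 3e-05, and -1.12 without the 4 livers), beside 4.26% of all genes that fell. It had 4.80 to 16.4 CPM and then 2.12 to 8.26 CPM. Of 27 genes of bile acid synthesis and transport Cyp39a1, an oxysterol hydroxylase, fell by 0.71 (0.034) and was not called without the 4 livers (0.90). Each of these lists had 1 call.

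Slc39a4, the zinc importer ZIP4, had the clearest fall. It had 35.0 to 79.9 CPM at 3 months (median 59.3) and 6.54 to 32.6 CPM at 15 months (median 19.2), so the 2 ages did not overlap. The means were 58.4 ± 11.6 and 19.1 ± 6.35 CPM (SD, n = 16 each), which is 3.06-fold lower in the fit, with a log2 fold change of -1.61 (SE 0.21, adjusted p = 3.6e-08). The values of preps 1, 2 and 3 were -1.54, -1.72 and -1.49, and the 4 livers, at 45.4 to 64.3 CPM, lay inside the range of the others. Slc39a4 spans chr15:76612383-76617384 on the minus strand.

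Tent5a, a poly(A) polymerase of secretory transcripts, went from 12.1 to 24.9 CPM (median 16.9) to 6.64 to 12.0 CPM (median 9.61), a log2 fold change of -0.86 (adjusted p = 6.5e-08). Cdh1, the epithelial adhesion protein E-cadherin, which is periportal in hepatocytes, went from 19.9 to 50.8 CPM (median 31.3) to 8.29 to 21.7 CPM (median 12.5). Only the top of the older range met the bottom of the younger one, and the log2 fold change was -1.33 (SE 0.24, 7.6e-05). Cdkn2c, the cell cycle inhibitor p18, fell by 0.87 (0.00012), Tceal8, a nuclear protein, by 0.83 (2.4e-06), Chic1 by 1.12 (3.3e-05), Appl1, an adaptor of adiponectin receptors, by 0.44 (0.00011), and Rgs16, a regulator of G protein signalling with a strong daily rhythm, by 1.73 (0.015). Each of these genes was called without the 4 livers too, with log2 fold changes of -0.87 (Tent5a), -1.26 (Cdh1), -0.88 (Cdkn2c), -0.83 (Tceal8), -0.77 (Chic1), -0.45 (Appl1) and -1.94 (Rgs16). Rgs16 was not called without replicate 6 of 3 months (-1.37, 0.054).

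Most of the deepest falls were not kept without the 4 livers. Hist1h1e, a linker histone, changed by -2.59 on the log2 scale (adjusted p = 0.00015) with them and 0.16 (0.94) without them. Cela2a, a digestive elastase, had -1.95 and 0.13 (0.94), Slc34a2, a phosphate transporter, -1.92 and -0.21 (0.92), and Hist1h2be, a core histone, -1.86 and 0.41 (0.67). Angptl8 had -1.68 and -0.33 (0.83), Actg1 -1.48 and 0.21 (0.77), Hist1h1c -1.43 and 0.35 (0.43), and the nuclear RNA Neat1 -1.23 and -0.25 (0.82). The medians of 3 and 15 months were 67.1 and 68.8 CPM for Actg1, 46.7 and 49.3 CPM for Hist1h1c and 0.309 and 0.301 CPM for Hist1h1e.

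The same holds for the lists that fell. Of 71 replication-dependent histones 12 passed the filter on low counts and 5 of these fell, beside 4.26% of all genes that fell. In the fit without the 4 livers none fell and 1 rose, beside 0.388% and 1.69% of all genes. The sum of these 12 was 711 to 1021 CPM in the 4, 210 to 336 CPM in the other 12 and 230 to 315 CPM at 15 months. Of 22 heat shock and chaperone genes 3 fell (Hspa1a, Hspa1b and Hspa4), beside the same 4.26%, and none was called without the 4 livers. The pair Hspa1a and Hspa1b is near identical in sequence, as are many histones, so their single values are uncertain.

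Of 19 pericentral genes 4 rose, Oat, Cyp2a5 (0.72), the Wnt-dependent stem cell receptor Lgr5 (0.51) and Lect2 (0.34), with a median of 0.14, beside 3.06% of all genes. Oat alone was called without the 4 livers, beside 1.69% of all genes. Of 18 periportal genes Pigr, the receptor that carries IgA into bile, rose by 0.20 (adjusted p = 0.025, and 0.059 without the 4 livers) and Cdh1 fell, beside 3.06% and 4.26% of all genes. Of 33 collagens 3 rose and 4 fell, beside 3.06% and 4.26% of all genes. Without the 4 livers Col25a1 rose while Col4a2 and Col4a5, of basement membranes, fell, beside 1.69% and 0.388% of all genes. Col4a2 went from a median of 38.5 to one of 29.9 CPM, a log2 fold change of -0.38 (0.0074). Dcn, decorin, a proteoglycan of stellate cells and fibroblasts, rose by 0.26 (0.00083), from 139 to 190 CPM to 168 to 229 CPM, and was the 1 gene called among 15 stellate cell genes, beside 3.06%.

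Of 17 genes of cyclin-dependent kinase inhibitors and senescence 1 rose, Cdkn2a, and 2 fell, Cdkn2c among them, beside 3.06% and 4.26% of all genes. In the fit without the 4 livers 1 rose and 1 fell, beside 1.69% and 0.388%. None of 36 cell cycle genes was called, beside 7.32% of all genes. Of these 36, 30 had a log2 fold change below 0, beside 8681 of all 15579 genes, and their median was -0.21 (-0.43 without the 4 livers). Their summed level had medians of 167 CPM at 3 months and 169 CPM at 15 months. The proliferation marker Mki67 ran from 0.355 to 21.1 CPM at 3 months, the highest in replicate 12, and from 0.878 to 5.83 CPM at 15 months. Of 30 unfolded protein response genes Asns, asparagine synthetase, rose by 1.18 (adjusted p = 0.0056, 1.37 without the 4 livers) and Chac1 by 1.18 (0.021, and 0.28 without the 4), beside 3.06% of all genes that rose. Replicate 1 of 15 months had the highest Asns, 26.4 CPM. Tsc22d3, a glucocorticoid target, fell by 0.56 (0.021) and was the 1 gene called of 22 glucocorticoid-responsive genes, beside 4.26% of all genes that fell. It was not called without replicate 6 (-0.42, 0.078) or replicate 10 of 3 months (-0.49, 0.057). Acute phase genes (27 tested) had no call, beside 7.32% of all genes, and Saa2 reached 940 CPM in replicate 12 and 1473 CPM in replicate 15 of 3 months against a median of 17.4 CPM.

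No gene was called among 79 cytosolic ribosomal proteins (median 0.03), 77 nuclear genes of oxidative phosphorylation, 13 mitochondrially encoded proteins, 38 proteasome subunits (-0.03), 31 genes of the urea cycle and amino acid catabolism, 18 of iron handling and 22 of feeding, glycolysis and fatty acid synthesis, beside 7.32% of all genes. In the smaller of these lists that share comes to few genes. At an unadjusted p under 0.05, 3274 genes passed over the whole table.

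Levels at the other ages are set beside these 2 as a description, since the contrasts share livers. Between 9 and 15 months 8 genes were called (0.0514% of 15579), all higher and all among the 477 above: Dmrta1, Hsf2bp, Noct, Ntrk2, Nebl, Olfr701, Olfr1030 and Igkv9-124. Igkv9-124 had 5.09 and 3.22 CPM in replicates 1 and 11 of 15 months, but 0.0311 CPM in replicate 2 of that age. Replicate 15 of 3 months had 0.551 CPM of it. In Gnai1 the mean CPM at 3, 9, 15, 24 and 28 months was 1.49, 4.12, 4.47, 2.87 and 2.31. Serpine2 had 5.94, 17.8, 19.9, 12.5 and 8.41, and Tent5a, among those that fell, 17.2, 10.1, 9.52, 11.8 and 16.2. In these 3 genes the oldest livers were nearer to the youngest, and the step from 15 to 28 months was called (log2 fold changes -0.90, -1.21 and 0.78, adjusted p = 2.4e-08, 1.7e-08 and 2.5e-08).

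Noct had 12.8, 20.5, 59.9, 116 and 130 CPM, and its steps of 15 over 9 months (1.54, adjusted p = 0.0012) and 28 over 15 months (1.10, 0.00012) were both called. Slc22a27 had 0.774, 1.64, 3.14, 11.4 and 35.4 CPM, with the larger step after 15 months (3.44, 1.3e-15). Cdh1 had 33.4, 19.6, 13.1, 6.77 and 5.70 CPM, and fell again by 28 months (-1.24, 9.7e-06). By contrast, Slc39a4 had 58.4, 30.7, 19.1, 22.4 and 21.9 CPM, and its step after 15 months was not called (0.16, 0.52).

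**Figure D5:**
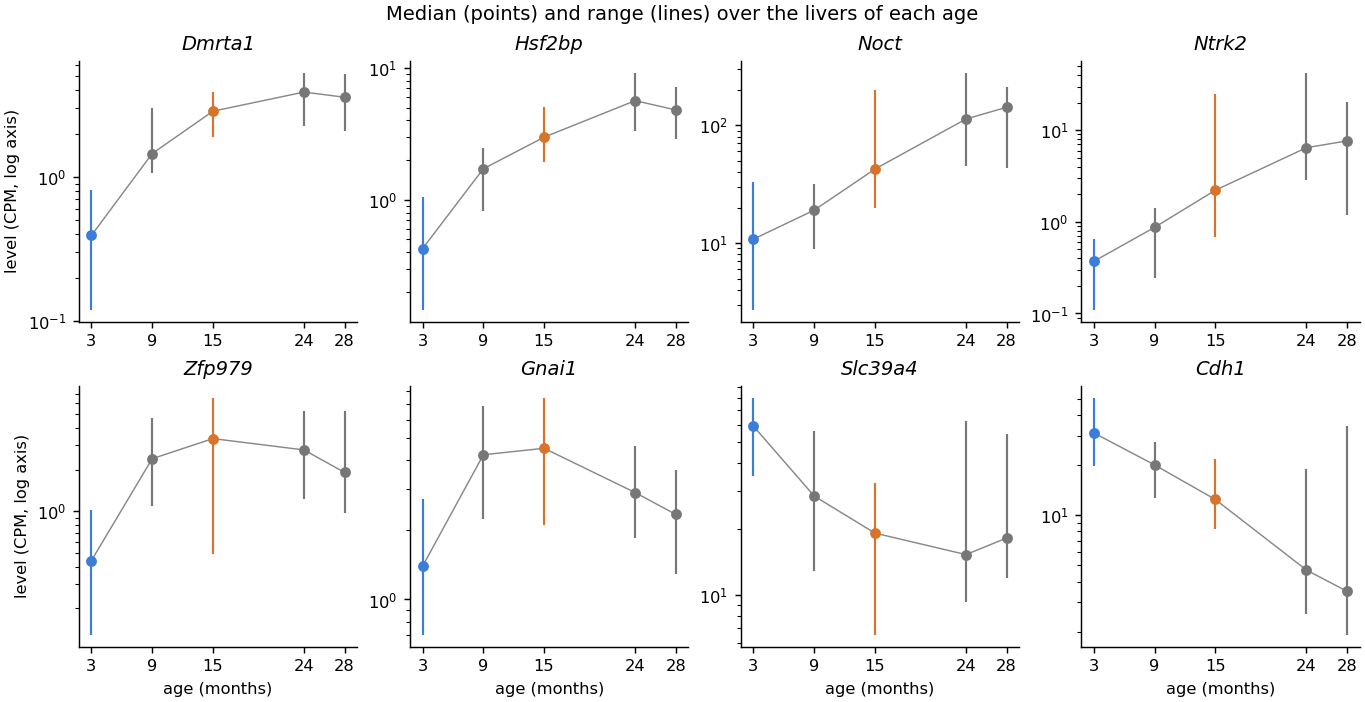
Points are the median CPM over the livers of each age and lines run from the lowest to the highest liver, on a log axis, against age in months for 8 genes (3 months blue, 15 months orange). The medians of Gnai1 and Zfp979 are highest at 15 months, those of Noct and Ntrk2 go on rising to 28 months, and that of Cdh1 goes on falling.

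The liver change was set against that of the brain of the same mice (31 brain libraries) by a test of the tissue by age interaction. The main fit had no term for the mouse, so it took brain and liver of the same mouse as independent. Of 14035 genes kept in both tissues 404 differed in their change (2.88%), 245 with a more positive change in the liver and 159 with a more negative one. Without both libraries of the 4 mice, 301 did (207 and 94), and with each mouse as a replicate block 271 did (191 and 80). Ntrk2 differed by 2.95 on the log2 scale (SE 0.35, adjusted p = 1e-08). In the brain it was abundant, at 593 ± 36.3 CPM (SD, n = 15) at 3 months and 632 ± 36.1 CPM (SD, n = 16) at 15 months, and its brain change was not called (0.61). Ighm differed by 2.59 (1.1e-06), with 12.1 and 13.6 CPM in the brain. Rgs16 differed by -1.80 (0.011), with 8.69 and 8.92 CPM in the brain. The difference in Igkc was 3.57 (4e-05), but it was 1.07 (0.51) without the 4 mice, a fit that drops their brain libraries too. Its brain level was 1.94 ± 4.18 CPM (SD, n = 15) at 3 months and 0.94 ± 0.48 CPM (SD, n = 16) at 15 months. The brain log2 fold change of Igkc was -1.02 and was not called (0.75). Pcp4l1 and Neat1 differed by -1.56 and -1.40 (0.0055 and 0.043), and without the 4 mice by -0.54 and -0.57 (0.27 and 0.49). With the block Rgs16, Pcp4l1 and Neat1 differed by -1.30, -1.25 and -0.86 and were not called (0.13, 0.075 and 0.19).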

How the data were processed

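Bulk RNA of the brain and liver was sequenced as 100-base paired reads from a stranded polyA library kit after QIAzol and chloroform extraction, per the labels' protocols. The authors deposited raw whole-number counts per gene, 1 table per tissue with 55471 gene identifiers, and 0 columns were left without a sample. The submitters' processing notes name cutadapt 2.8, HISAT2 2.1.0, SAMtools 1.9, featureCounts, Subread 2.0.1 and the build GRCm38.p6 (mm10), with no roles. The annotation release, strand setting and handling of shared reads are not given in the sources used here. Symbols matched 55144 identifiers, and 55230 were in GENCODE M21 on GRCm38, which gave positions.

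All 83 livers were fitted in edgeR 4.0.16 (R 4.3.3) with age and prep as terms after filterByExpr by age and TMM scaling, which kept 15579 genes. The two-sided quasi-likelihood test compared 15 with 3 months, with Benjamini-Hochberg adjustment over all genes and a threshold of 0.05. Standard errors (SE) are the absolute log2 fold change over the square root of F. The floor is 3 counts and covers counting error only. On simulated counts of 15579 genes the fit recovered 68%, 94%, 100% and 100% of 50 genes each changed 1.5, 2, 4 and 8-fold, with 5 false calls among the unchanged genes. The simulation had no prep effect, no spread particular to a gene and no livers that stand apart. It therefore does not give the rate of false calls in the real livers. The brain difference was an interaction term over both tissues at 3 and 15 months, with no term for the mouse in the main fit. The library names in the labels number the mice within an age, which pairs the brain and liver of 1 mouse.

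Genes were named by rule: the 12 highest and 12 lowest fold changes and the 8 lowest adjusted p in each direction among called genes averaging at least 1 CPM over the 32 livers (the fold changes also with 1 direction in every prep), up to 4 called or 2 uncalled members per list, and 3 in each direction for the brain. Other named genes (marker levels, genes without overlap, neighbours, genes apart in the 4 livers) were chosen after their values were seen. The comparison, the 55 gene lists and the tests were chosen with earlier results of these data known. Alternatives were RLE size factors, DESeq2 1.42.0, voom with quality weights in limma 3.58.1, other filters, fewer ages, preps alone, a replicate block and leaving out livers. The fits without the 4 and 6 livers were chosen after seeing the data.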

Additional observations from a re-analysis of the deposited data

Results flagged for a closer look

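In 7 results the liver change from 3 to 15 months differed from the brain change over the same ages by the test of the difference itself. Across all genes kept in both tissues, 404 did. By gene, the log2 difference of liver change minus brain change was 3.57 for Igkc (adjusted p = 4e-05), 2.95 for Ntrk2 (1e-08), 2.59 for Ighm (1.1e-06), -1.80 for Rgs16 (0.011), -1.56 for Pcp4l1 (0.0055) and -1.40 for Neat1 (0.043), by edgeR's quasi-likelihood test. In the brain none of the 6 genes was called for its own change. With the mouse as a replicate block Rgs16, Pcp4l1 and Neat1 were not called (0.13, 0.075 and 0.19), and without the 4 mice Igkc, Pcp4l1 and Neat1 were not (0.51, 0.27 and 0.49). The cause of these differences was not tested.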

How the results depend on the processing

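The called genes numbered 1140, and 1008 with RLE size factors, 876 with no filter, 845 with a mean of at least 1 CPM, 1194 with no prep term, 967 with voom weights and 1130 with DESeq2. They numbered 708 (286 lower) with only livers of 3 and 15 months in the fit. The lower genes, 663, were 433 with no filter and 352 with voom. Preps 1, 2 and 3 alone called 58, 64 and 14 genes, 57, 54 and 14 higher and 1, 10 and 0 lower, with fewer livers in each fit. Without the 4 livers 327 were called, 266 higher and 61 lower. Without these, replicate 12 of 3 months and replicate 1 of 15 months, 329 were (269 and 60). With only 3 and 15 months and without the 4, 506 were called and 152 were lower. Leaving out 1 liver in turn gave 609 to 1349 called, 362 to 606 higher and 247 to 843 lower. Replicates 10, 13, 15 and 16 of 3 months each moved the called and lower counts by over 1.5 times.

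The sign turned without the 4 livers, without the 6, and with only 3 and 15 months without the 4 in Actg1 (0.21, 0.14 and 0.21), Cela2a (0.13, 0.11 and 0.15), Hist1h1c (0.35, 0.39 and 0.35) and Hist1h2be (0.41, 0.49 and 0.43), and in the first 2 of these fits in Hist1h1e (0.16 and 0.15). With voom, Hist1h1c had 0.23, Hist1h1e 0.26 and Hist1h2be 0.46. Of 90 called genes named in the text, 62 kept their call and sign in each of the fits that gave them a value among RLE, DESeq2, voom, 2 other filters, 2 ages, no prep term and the block (704 values in all), and 69 kept them whichever single liver was left out. Of the other 21, Cyp2a4, Cxcl13, Cxcl1, Mmp9, Ddx58, Rgs16 and Tsc22d3 stand with their values above. Hspa1a lost its call without replicate 5 of 3 months (-1.01, adjusted p = 0.051), and the other 13 lost it without at least 1 of replicates 10, 13, 15 and 16 of 3 months. The causes were not tested.

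A replicate block gave 1021 calls (451 higher, 570 lower). Numbers mark different mice at each age: over 16 pairs of livers with the same number the correlation of deviations was -0.47 to 0.31 (median -0.04), and 1 liver of 3 months correlated best with its own number. For the brain difference, where numbers mark the same mouse, the block gave 271 calls (191 and 80) and RLE 401 (269 and 132). Without the 4 mice there were 94 more negative in the liver. The block changed no call of the other 3 genes named from that test. Depth limited genes such as Cdkn2a, with 11 of 16 livers of 3 months at 3 counts or fewer.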
